A study of Homo sapiens with 4 samples.

Results

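Divergent transcripts are noncoding RNAs that start beside a coding gene and run away from it on the other strand; their symbols end in -DT after the symbol of that gene. The features described here are the 37 whose name ends in -DT and whose mean over the 4 libraries was 20 counts or more, with NCMAP-DT left out, among 285 features named in this way and 59385 in the whole table. They were measured by RNA sequencing of C4-2 cells, an established human prostate cancer line that descends from LNCaP and grows without androgen. The BHB group received β-hydroxybutyrate, the main circulating ketone body, at 50 mM in RPMI for 3 days, and the control group received RPMI medium alone. Each group had 2 libraries, replicates 1 and 2, both groups were grown in RPMI with 10% serum, and no genetic change is given for either. Nothing in the labels ties the replicates to independent cultures; the p-values below therefore reflect library-to-library spread, possibly of technical origin alone. In bulk RNA, fewer cells of a kind and less RNA per cell cannot be told apart.

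The level chose the members, so their abundance is a description and not a finding. CD2BP2-DT (mean 20.75 counts), ZFAND2A-DT (21) and FAM111A-DT (22.25) lay just inside the minimum. CTBP1-DT (16.75), WDR5-DT (16.5) and VPS13B-DT (15.75) lay just outside it. All 37 passed the filter on low counts of the whole-table fit.

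Most human promoters fire in both directions. The coding strand is extended into messenger RNA, while the upstream product usually meets early polyadenylation signals with few U1 sites to mask them, is terminated early and is degraded by the nuclear exosome. Transcripts annotated as -DT are those that were long or stable enough to be given a gene model, and many are spliced. Their promoters are typically rich in CpG and shared with the coding gene.

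The 36 members that could be placed in GENCODE release 29 (GRCh38) all lay on the strand opposite their coding gene, and 34 started within 1000 bases of its start. In 17 the starts were separated by a gap of 56 to 419 bases, with a median of 142. In the other 19 the genes overlapped at their starts by 50 to 1286 bases, with a median of 253. FBXO30-DT was not placed. The sequences are given for 4 of the 6 most abundant members with a RefSeq promoter entry. In these the RefSeq start of the member lies beyond the first exon of the coding gene and within reach of it. Left out were USP34-DT and GARS1-DT, whose windows hold no base of a coding exon. The RefSeq start of GARS1-DT lies 16902 bases from the start of GARS1, and its window is among the member windows counted below. The 2 annotations differ in places. In release 29 H2AZ1-DT and TMED2-DT overlap their coding genes at the starts, so their stretches lie inside the release 29 gene of the member. Whether a stretch is promoter shared by the pair was not tested. Each runs from the first base beyond the coding gene's first exon to 50 bases past the RefSeq start of the member (RefSeq, GRCh38.p14), on the strand of the member. Capitals mark matches, on either strand, to the CCAAT box, to the GC box GGGCGG, to TATAA of the TATA box, to the cyclic AMP response core letters TGACG or to the E-box CACGTG. None of the marked matches in these stretches share bases.
H2AZ1-DT: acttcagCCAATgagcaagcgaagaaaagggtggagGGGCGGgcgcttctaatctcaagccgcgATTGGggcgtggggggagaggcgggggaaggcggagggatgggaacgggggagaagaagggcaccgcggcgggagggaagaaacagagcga
WDR5B-DT: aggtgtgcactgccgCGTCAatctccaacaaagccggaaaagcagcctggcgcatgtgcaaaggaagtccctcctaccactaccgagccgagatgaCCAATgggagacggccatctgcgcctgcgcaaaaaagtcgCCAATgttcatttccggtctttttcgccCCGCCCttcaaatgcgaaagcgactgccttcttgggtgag
TMED2-DT: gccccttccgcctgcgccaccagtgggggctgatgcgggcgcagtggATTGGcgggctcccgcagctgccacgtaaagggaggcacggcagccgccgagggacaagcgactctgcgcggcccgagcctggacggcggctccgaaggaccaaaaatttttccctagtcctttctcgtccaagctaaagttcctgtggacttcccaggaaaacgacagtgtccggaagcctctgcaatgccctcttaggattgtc
KPNB1-DT: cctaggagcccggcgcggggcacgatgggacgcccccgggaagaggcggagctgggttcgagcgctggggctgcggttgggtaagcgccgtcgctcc

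The H2AZ1-DT stretch (chr4:99950389-99950543, plus strand) holds CCAAT 2 times and GGGCGG once. The WDR5B-DT stretch (chr3:122416052-122416255, plus strand) holds CCAAT 2 times, with GGGCGG and TGACG once each. The TMED2-DT stretch (chr12:123584278-123584530, minus strand) holds a single CCAAT, and the KPNB1-DT stretch (chr17:47649379-47649475, minus strand) holds none of these letters. A RefSeq promoter window of 300 bases was found for 31 members and for 34 of the coding genes in their names. GGGCGG was present in 74.2% of member windows, against 54.2% of 18369 windows over all features in the table, and TGACG in 48.4% against 28.2%. CCAAT was present in 35.5% against 36.4%, TATAA in 6.45% against 17.9%, and CACGTG in 6.45% against 8.42%. Member windows had a median GC content of 66.3% and a median CpG observed over expected ratio of 0.92, while the values over all windows were 61.7% and 0.73. The 34 windows of the named coding genes stood near the members for GGGCGG (67.6%), TGACG (47.1%), median GC content (64.7%) and CpG ratio (0.92). They held CCAAT in 44.1%, TATAA in 14.7% and CACGTG in 5.88%. Where the starts of a pair lie close, its windows cover some of the same bases, and matches were counted on either strand. Likeness between the members and their coding genes is therefore partly fixed by position and is not a separate observation. How many pairs share bases was not worked out. A letter match is a description of sequence only.

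Nearly every member also faced the exons of a coding gene. Of the 36 placed members, 35 (97.2%) had exon bases opposite coding gene exons, with a median of 243 bases. Among 241 other placed -DT features, 45 (18.7%) did, with a median of 0 bases, and 109 of those 241 had 0 counts in all libraries. PPM1K-DT, named for a mitochondrial phosphatase gene of branched-chain amino acid breakdown and holding 26.75 counts on average, was the single placed member with no coding exon opposite. In 21 members the facing exons included protein-coding sequence, and in the other 14 they did not. These shares are descriptions of a set chosen on its counts.

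**Figure D1:**
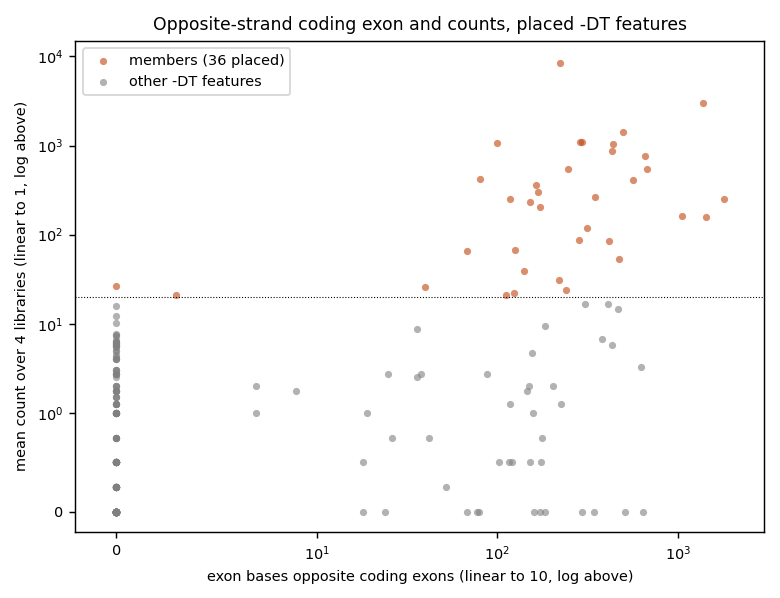
Mean count over the 4 libraries (vertical axis, linear to 1 and log above) against exon bases opposite coding exons (horizontal axis, linear to 10 and log above) for the placed -DT features, with the minimum of 20 counts dotted. Of the 36 placed members, 35 lie to the right of 0 bases, while most of the other -DT features lie at 0 bases.

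The members fell into 2 arrangements. In 19, the body ran far enough to face the exons of another coding gene and covered the 3′ end of that gene, so that the 2 genes met tail to tail. In 16, the gene facing the member was the coding gene in its name alone, met at the starts. Members facing another gene had a median of 304 counts (20.8 to 2979.5), and those facing only the named gene had a median of 184 counts (21 to 8387.5). Of the 12 most abundant members, 8 faced another gene. The strand setting of the counting is not given in the sources used here, so counts listed under a member cannot be told apart from reads of the coding gene opposite it where their exons overlap.

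Levels ran from 4.6 to 1724 mean counts per kilobase of listed exon, with a median of 55.7. By plain counts, 13 members averaged under 100 counts, 17 from 100 to under 1000, and 7 at least 1000. Summed over the 37 members, counts were 23141 and 22609 in BHB replicates 1 and 2, which is 1.02% (95% Wilson interval 1.01 to 1.03) and 1.01% (0.999 to 1.03) of all counts. In control replicates 1 and 2 they were 25099 and 24291, which is 0.978% (0.967 to 0.991) and 1.09% (1.07 to 1.10). The BHB shares lay between the control shares. These intervals cover counting error only.

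**Figure D2:**
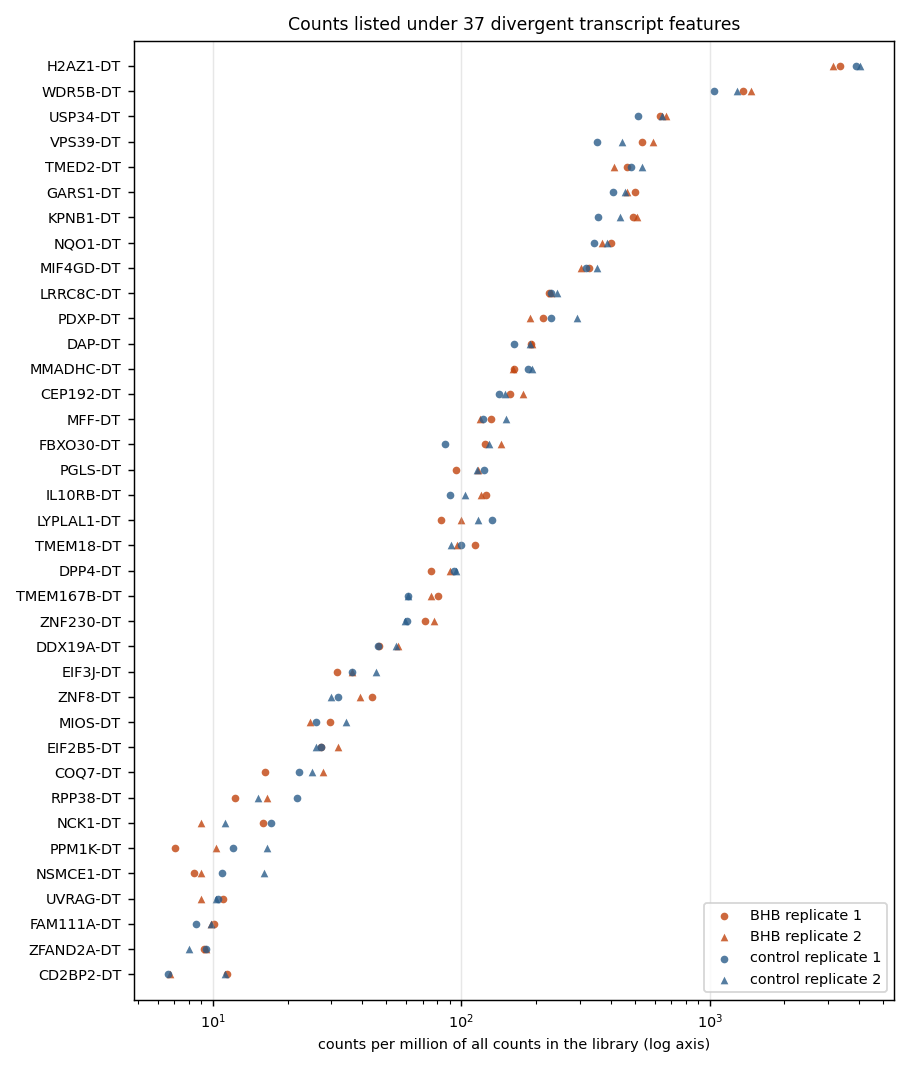
CPM relative to all counts in the library (horizontal log axis) for each of the 37 members, with BHB libraries in orange-red and controls in blue. H2AZ1-DT stands apart at 3146 to 4021, and the BHB and control points of most members lie close together.

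H2AZ1-DT held the most counts of any member. It is named for H2AZ1, the gene of the histone variant H2A.Z, which sits in nucleosomes at promoters. H2AZ1-DT (ENSG00000245322, chr4:99950006-100195099, plus strand) had 7595 and 7027 counts in BHB libraries, against 9930 and 8998 in controls. As CPM, counts scaled to the library total, it averaged 3240 ± 139 in BHB libraries and 3950 ± 106 in controls (SD, n = 2 each), so the groups did not overlap. It made up 32.8% and 31.1% of all member counts in BHB libraries, against 39.6% and 37.0% in controls. H2AZ1 itself, with 223 exon bases opposite the member, had 50 and 54 counts in BHB libraries and 103 and 37 in controls. The log2 fold change of H2AZ1-DT was −0.33 (SE 0.25, edgeR adjusted p = 1.0), which did not pass.

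WDR5B-DT (chr3:122416207-122443180, plus strand) came second. WDR5B is a relative of WDR5, a scaffold subunit of histone H3 lysine 4 methyltransferases. Counts listed under WDR5B-DT were 3098 and 3290 in BHB libraries and 2660 and 2870 in controls. Its exons faced 1377 bases of KPNA1, an importin alpha gene, which had 88 and 100 counts in BHB libraries and 155 and 111 in controls. The groups of WDR5B-DT did not overlap in CPM, at 1420 ± 77.3 in BHB libraries and 1160 ± 174 in controls (SD, n = 2 each), but they overlapped after TMM scaling, the between-library scaling used in the fit. The log2 fold change was 0.23 (SE 0.27).

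USP34-DT, TMED2-DT and GARS1-DT each averaged over 1000 counts. USP34-DT (chr2:61471188-61484130, plus strand), named for a ubiquitin protease gene and facing 494 exon bases of the nuclear export receptor gene XPO1, had 1430 and 1492 counts in BHB libraries and 1319 and 1439 in controls. TMED2-DT (chr12:123575891-123585115, minus strand), named for a p24 cargo receptor gene of the early secretory pathway, had 1058 and 917 counts in BHB libraries and 1237 and 1190 in controls. GARS1-DT (chr7:30516309-30594809, minus strand), named for the glycyl-tRNA synthetase gene, had 1140 and 1041 counts in BHB libraries and 1051 and 1017 in controls. In CPM both BHB libraries lay above both controls for GARS1-DT and below them for TMED2-DT, while for USP34-DT the groups overlapped; after TMM scaling all 3 overlapped. The log2 fold changes of these members were 0.11 (SE 0.27), −0.26 (SE 0.26) and 0.11 (SE 0.25), and none passed the edgeR test.

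VPS39-DT and KPNB1-DT held more counts with BHB in every library pair. VPS39-DT (chr15:42208413-42226990, plus strand), named for a subunit gene of the HOPS complex that tethers late endosomes and lysosomes, had 1215 and 1316 counts in BHB libraries and 900 and 993 in controls. That was 562 ± 38.5 CPM in BHB libraries and 397 ± 65.7 in controls (SD, n = 2 each), and its log2 fold change of 0.44 (SE 0.28) was the highest among the members. The gene facing it, TMEM87A, had 62 and 80 counts in BHB libraries and 112 and 43 in controls. KPNB1-DT (chr17:47603860-47649420, minus strand), named for the importin beta gene, had 1118 and 1141 counts in BHB libraries and 909 and 978 in controls. After TMM scaling control replicate 2 reached the BHB range, and the log2 fold change was 0.29 (SE 0.27).

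NQO1-DT and MIF4GD-DT complete the abundant members with tightly placed values. NQO1-DT (chr16:69727013-69742563, plus strand) is named for a quinone reductase gene induced by oxidative stress. Of its 592 exon bases, 429 faced NOB1, whose product cleaves the precursor of 18S ribosomal RNA. NQO1-DT had 907 and 826 counts in BHB libraries and 875 and 861 in controls, while NQO1 had 17 and 28 counts in BHB libraries and 43 and 14 in controls. MIF4GD-DT (chr17:75271369-75273895, plus strand) had 741 and 676 counts in BHB libraries and 816 and 789 in controls. Log2 fold changes were 0.03 (SE 0.26) and −0.14 (SE 0.26).

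Besides VPS39-DT, 4 members with at least 50 counts had both BHB libraries above both controls after TMM scaling. ZNF8-DT had 99 and 87 counts in BHB libraries and 82 and 67 in controls, with a log2 fold change of 0.38 (SE 0.33). ZNF230-DT had 163 and 173 counts in BHB libraries and 155 and 133 in controls, with 0.28 (SE 0.27). Both are named for zinc finger genes on chromosome 19, and each faced the exons of another zinc finger gene, ZNF544 for ZNF8-DT and ZNF155 for ZNF230-DT. IL10RB-DT (chr21:33263873-33266260, minus strand) is named for a receptor chain gene of the interleukin 10 family, and 80.9% of its exon bases in release 29 faced IFNAR2, a type I interferon receptor gene. It had 286 and 269 counts in BHB libraries and 231 in each control, with a log2 fold change of 0.30 (SE 0.27), while IFNAR2 averaged 1 count. TMEM167B-DT had 183 and 168 counts in BHB libraries and 156 and 137 in controls, with a log2 fold change of 0.31 (SE 0.28).

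Besides H2AZ1-DT, 3 members with at least 50 counts had both BHB libraries below both controls after TMM scaling. LYPLAL1-DT (chr1:219086602-219173961, minus strand), named for a lysophospholipase-like gene at a locus linked to body fat distribution, had 189 and 223 counts in BHB libraries and 341 and 262 in controls. This was 91.5 ± 11.8 CPM in BHB libraries and 125 ± 11.2 in controls (SD, n = 2 each), with a log2 fold change of −0.48 (SE 0.26). PDXP-DT (chr22:37641832-37658377, minus strand), named for the pyridoxal phosphatase gene and facing 675 exon bases of SH3BP1, had 483 and 424 counts in BHB libraries and 591 and 655 in controls, with −0.44 (SE 0.28). After TMM scaling BHB replicate 1 and control replicate 1 of PDXP-DT were almost equal, at 212.9 and 213.0 TMM-scaled CPM. MMADHC-DT (chr2:149587196-149848233, plus strand), named for a gene of intracellular vitamin B12 processing, had 371 and 362 counts in BHB libraries and 474 and 432 in controls, with −0.26 (SE 0.25).

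No member passed the comparison of BHB with control. In edgeR's quasi-likelihood fit over 9295 features, adjusted by Benjamini-Hochberg, 0% were called higher and 0% lower at an adjusted p under 0.05, and so 0 of the 37 members. At an unadjusted p under 0.05 there were 0 members, against 2.26% of all features (210). DESeq2 and limma-voom also called 0 members, with 0 at an unadjusted p under 0.05. Member log2 fold changes ran from −0.77 to 0.44, with 17 above and 20 below 0. Their median was −0.03, the same as over all features tested. With 2 libraries a group an exact permutation test cannot go below a p of 0.333.

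After TMM scaling both BHB libraries lay above both controls in 6 members (16.2%), against 15.1% of all features tested. They lay below both controls in 7 members (18.9%), against 14% of all features. Both shares were near the background. With plain totals in place of TMM the counts were 11 members above (29.7%, background 19.6%) and 10 below (27%, background 13.8%). On that scaling 4 members had an unadjusted p under 0.05 (10.8%, background 5.75%), namely H2AZ1-DT, VPS39-DT, KPNB1-DT and LYPLAL1-DT, and none passed after adjustment over all features (lowest adjusted p = 0.69, for H2AZ1-DT, edgeR). Scaled to the members themselves, 11 lay above (background 18.3%) and 11 below (background 15.2%), and 5 had an unadjusted p under 0.05 (13.5%, background 6.3%). Depth differed from this background, with a median of the mean counts of 254 for members and 39.2 over all tested features. Among 402 features ending in -AS1 with at least 20 counts, 109 lay above and 87 below with plain totals. Among 43 such features with names starting in LINC, 10 lay above and 7 below. Whether members exceed features of like depth was not tested.

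The direction of many members turned with the control library used. Without control replicate 1, edgeR called 7 members lower and 0 higher, where 6.38% of all features were called lower and 5.84% higher. Without control replicate 2 it called 9 members higher and 0 lower, where 9.43% of all features were called higher and 7.21% lower. The 7 lower were H2AZ1-DT, TMED2-DT, MIF4GD-DT, PDXP-DT, MMADHC-DT, MFF-DT and LYPLAL1-DT, and the 9 higher were WDR5B-DT, USP34-DT, VPS39-DT, GARS1-DT, KPNB1-DT, NQO1-DT, DAP-DT, FBXO30-DT and IL10RB-DT. Without either BHB library edgeR called 0 members and 0% of all features, higher or lower. No member was called in both control fits, and 19 of 37 had opposite signs in them. WDR5B-DT had a log2 fold change of −0.05 without control replicate 1 and 0.61 without control replicate 2, while H2AZ1-DT had −0.51 and −0.10. Across all 14 fits 16 members kept their sign, 7 higher and 9 lower with BHB. KPNB1-DT, among the higher, came down to 0.00 in the lowest fit. Most of these fits use the same 4 libraries, so their signs tend to go together. The share of all features that kept their sign was not worked out. LYPLAL1-DT ranged from −0.62 to −0.34, ZNF8-DT from 0.27 to 0.52 and VPS39-DT from 0.14 to 0.84.

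**Figure D3:**
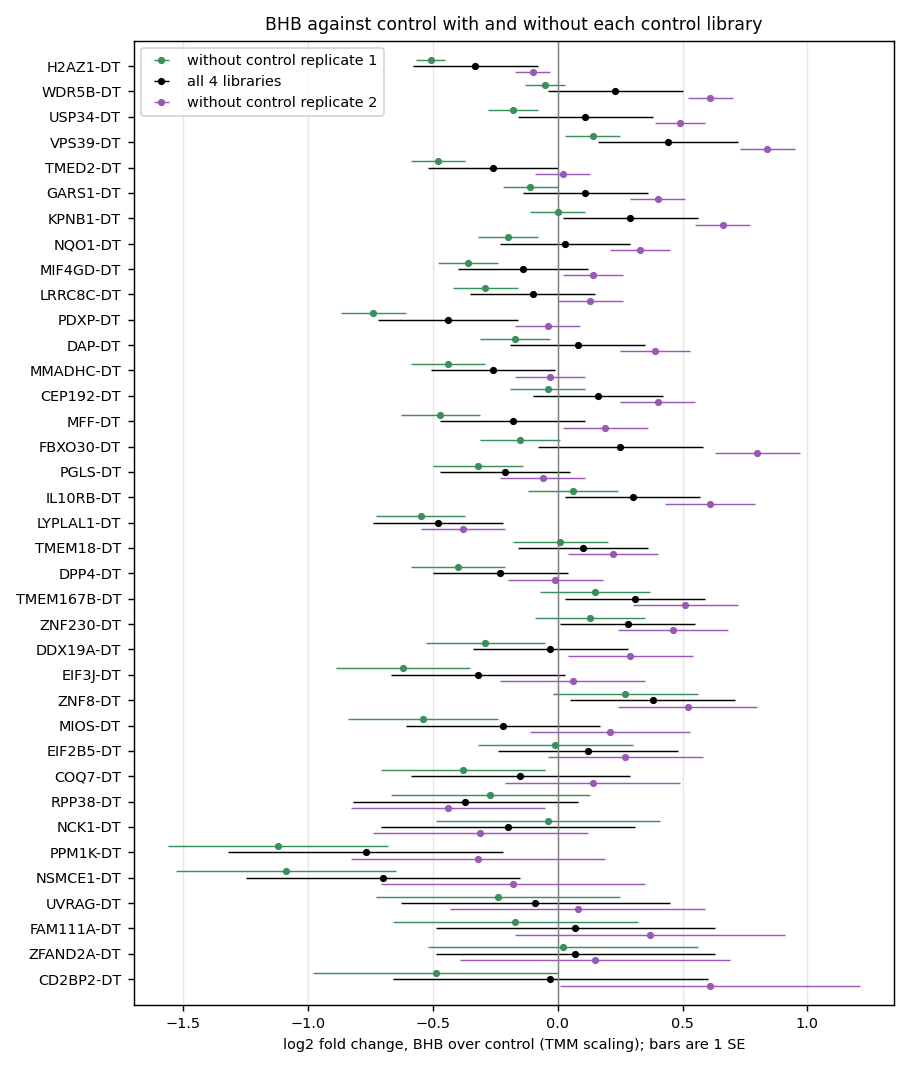
Log2 fold change of BHB over control for each member (horizontal axis; bars are 1 SE) with all 4 libraries, without control replicate 1 and without control replicate 2. The points without control replicate 1 lie left of those without control replicate 2 in most members, and the medians are −0.24 and 0.21.

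The coding genes named by the members held far fewer counts. Members were chosen at a mean of 20 counts or more, while coding genes named by or facing them were not chosen on level. This choice tilts the comparison toward the members, so the excess describes a chosen set and not -DT features in general. Among 241 other placed -DT features the median of the mean counts was 0.25. Per kilobase of exon, 35 of 37 members exceeded their coding gene, with a median ratio of 27.5, and 33 exceeded it in plain counts. The exceptions per kilobase were EIF3J-DT, beside a translation initiation factor gene, and ZFAND2A-DT, beside a gene induced by arsenite stress. Summed over the 37 coding genes, counts were 1408 and 1552 in BHB libraries and 2322 and 1148 in controls, and 22 of the 37 averaged under 20 counts. Members likewise exceeded 17 of the 19 other coding genes they faced per kilobase. KPNB1, the most abundant of the named coding genes, had 250 and 309 counts in BHB libraries and 578 and 115 in controls. EdgeR called 0 of the 19 coding genes that could be tested, with 0 at an unadjusted p under 0.05, and their median log2 fold change was −0.11. Without control replicate 1 the median was 0.23 over the 20 coding genes that could then be tested. Without control replicate 2 it was −0.51 over 23, so these medians are not over the same genes.

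**Figure D4:**
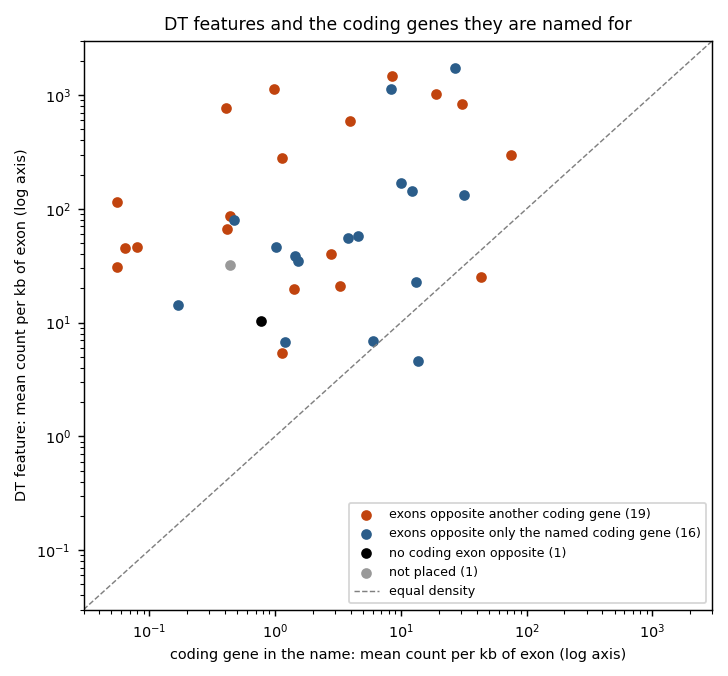
Mean count per kilobase of exon of each member (vertical log axis) against that of the coding gene in its name (horizontal log axis), coloured by the coding exons facing the member. In 35 of 37 pairs the point lies above the dashed line of equal density. Members were chosen on their counts and the coding genes were not.

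Replicate libraries stood closer together for the members than for the coding genes in their names. The log2 ratio of BHB replicate 1 over BHB replicate 2 had a median of −0.02 over members (SD 0.29), and that of control replicate 1 over control replicate 2 was −0.15 (SD 0.27), both on CPM. For the named coding genes the control ratio had a median of 0.88 over all 37, and control replicate 1 was more than 1 log2 unit higher in 17 of them, against 0 of the members. Over the 19 coding genes that could be tested, the control ratio had a median of 0.85 (SD 0.96) and the BHB ratio a median of −0.33 (SD 0.68). Members were chosen at 20 counts or more, while 22 of the 37 coding genes averaged fewer, and low counts widen such ratios. TMED2-DT had 1237 and 1190 counts in control replicates 1 and 2, while TMED2 had 250 and 45. Members facing another gene had a median control ratio of −0.20, and those facing only the named gene −0.04. TMM scaling gave control replicates 1 and 2 factors of 1.103 and 0.8859, so that the members stood further apart between controls after it. Whether this difference between the controls sets the members' direction was not tested beyond the fits without each library.

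**Figure D5:**
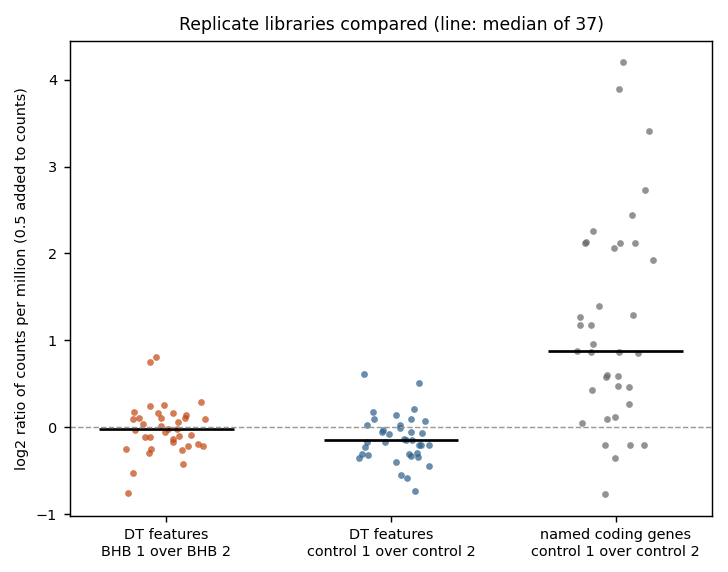
Log2 ratio of CPM between replicate libraries (vertical axis) for the 37 members in the BHB pair and the control pair, and for the 37 named coding genes in the control pair; lines are medians. Members centre at −0.02 and −0.15, while the coding genes centre at 0.88.

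The classes most like the members had similar median ratios between controls, with a wider spread than the 0.27 (SD) of the members. The 402 features ending in -AS1 with a mean of at least 20 counts had a median control ratio of −0.15 (SD 0.35) and a median log2 fold change of 0.00, and the 43 features with names starting in LINC had −0.12 (SD 0.51) and 0.04. Over all tested features the median control ratio was 0.24 (SD 1.22). Depth differed as well, and low counts widen such ratios. The median of the mean counts was 254 for members, 161 for -AS1 features, 90.5 for LINC features and 39.2 over all tested features. EdgeR called 0 in either class, with 15 of the -AS1 features and 0 of the LINC features at an unadjusted p under 0.05. Without control replicate 1 it called 3 -AS1 features higher and 58 lower (median −0.22) and 0 LINC features higher and 5 lower (median −0.20). Without control replicate 2 it called 89 -AS1 features higher and 9 lower (median 0.27) and 6 LINC features higher and 0 lower (median 0.25).

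Genes of the machinery that ends and degrades divergent transcripts gave 0 calls in edgeR with all 4 libraries, with 1 exosome gene and 0 in the other lists at an unadjusted p under 0.05. Of the nuclear exosome and its adaptors 13 of 22 genes could be tested, with a median log2 fold change of −0.08. Cap binding and early termination genes had −0.08 (15 of 16 tested), Integrator genes −0.24 (9 of 14) and U1 snRNP proteins −0.34 (7 of 10), against −0.03 over all features. Calls appeared when a control library was left out. The genes that could be tested also changed with the library left out, so the medians are not all over the same genes. Without control replicate 1 the exosome median was −0.18 (14 tested) and the cap binding median 0.62 (15 tested). The Integrator median was then −0.30 (9 tested) and the U1 median 0.65 (7 tested). Without control replicate 2 these medians were, in the same order, −0.35 (19 tested), −0.50 (16 tested), −0.56 (10 tested) and −0.87 (10 tested).

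Library totals lay between 2233711 and 2565080 counts, with 16169 to 18218 features at 1 count or more. The 9 markers listed for prostate luminal cells were all present, and KRT8, a luminal keratin, held most of their counts at a mean of 10361.25. KLK3, the androgen-regulated gene of prostate-specific antigen, had 154 and 191 counts in BHB libraries, against 448 and 97 in control replicates 1 and 2. Of the basal, fibroblast, endothelial and leukocyte lists, 13 of 17 genes had 0 counts in every library, including all 4 leukocyte genes, and none of these lists summed to more than 12 counts in a library. The 3 neuroendocrine markers, with INSM1 at 0 in every library, summed to 5 and 9 counts in BHB libraries and 14 and 0 in controls.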

How the data were processed

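The values are raw counts per feature, as the authors deposited them, in a single table that also lists exon lengths. The submitters' processing notes list HISAT2 2.2.1 and featureCounts 2.0.3 beside edgeR and limma, and the human build GRCh38 (hg38). Per the labels' protocols, a stranded total RNA kit from BGI was used. Which annotation release, strand setting and rule for multiply matching reads applied is not stated. The members and lists were chosen with earlier results of these data known.

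BHB and control libraries were compared over the whole table with edgeR 4.0.16 in R 4.3.3 (filterByExpr, TMM, robust quasi-likelihood F-test, Benjamini-Hochberg adjusted p under 0.05). SE is the log2 fold change over the root of F. DESeq2 1.42.0 and limma-voom (limma 3.58.1) were alternatives, with other scalings and filters, a replicate block and each library left out. With a library left out, the lone library of its group is assumed to vary like the other group. CPM in the text is relative to all counts of a library unless TMM is named. Ratios between replicates used counts plus 0.5. Members were placed on GENCODE release 29 through their gene identifiers, 36 of 37; exon length equalled that of the table in 15, so overlaps are those of release 29. Promoter windows were RefSeq's, the first entry per symbol. Members described singly were the 10 with the highest mean TMM-scaled CPM, and those with at least 50 counts whose groups did not overlap after TMM scaling (up to 8 per direction). The fit was tested on simulated counts.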

Additional observations from a re-analysis of the deposited data

How the results depend on the processing

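Scaling to the DT features themselves was chosen after the data were seen; the other alternatives were listed earlier. The counts of 0 features and 0 members called stood with DESeq2, limma-voom, the replicate block, 4 further scalings and 2 further filters. With each library dropped in turn, calls ran from 0 to 1035 features higher and from 0 to 791 lower, 0 to 9 members higher and 0 to 7 lower, 0 to 13 members at an unadjusted p under 0.05, and medians of −0.24 to 0.21. Members with BHB libraries above the controls then numbered 6 to 23, and those below 6 to 25. A group of 1 library separates from the other group more readily than a group of 2. The share over all features was not worked out for these counts, nor for those at an unadjusted p, so nothing is read from them. With total counts 4 members had an unadjusted p under 0.05 and 11 lay above both controls. Scaled to the members, these were 5 and 11, with 11 below. With a minimum of 50 counts, which leaves fewer members, 4 lay below. The share over all features at that minimum was not worked out, so nothing is read from this count. Of 144 values for the members described singly, each kept its sign and stayed uncalled under the settings that keep all libraries; with 1 library left out, 13 of 64 became called and 7 changed sign, all while uncalled. Log2 fold changes without control replicate 1 and without control replicate 2 were −0.05 and 0.61 for WDR5B-DT, −0.18 and 0.49 for USP34-DT, −0.48 and 0.02 for TMED2-DT, −0.11 and 0.40 for GARS1-DT, −0.20 and 0.33 for NQO1-DT, and −0.36 and 0.14 for MIF4GD-DT. NQO1-DT had −0.01 without BHB replicate 1. Deviations of same-numbered libraries had a correlation of −0.02 over features. Each group gives a single difference between its replicates, so this value cannot decide whether same-numbered libraries were paired. The replicate block gave a member median of −0.02. Depth limits the 13 members under 100 counts most, where SE was 0.33 to 0.63.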

Other observations

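Below the minimum of 20 counts, 26 placed -DT features averaged from 5 to under 20 counts; they were looked at after their values were seen. Of the 19 with no coding exon opposite, 7 had at least 2-fold higher CPM in control replicate 1 than in control replicate 2, as did 2 of the 7 with a coding exon opposite. KDSR-DT, with 183 bases opposite, had 3 and 6 counts in BHB libraries and 26 and 3 in controls. At these counts single values carry wide counting error, and no comparison was made.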
